A study of Bos taurus with 15 samples.

Results

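The chains of the cartilage collagens, types II, IX and XI, were followed in bulk RNA of bovine (Bos taurus) meniscal fibrochondrocytes at day 28 of culture. These cells make the matrix of the knee meniscus. The members were the rows whose gene name was COL2A1, COL9A1, COL9A2, COL11A1 or COL11A2, which are 5 of 38001 bovine genes in the table. All 5 were among the 11834 genes kept for testing by a filter on low counts. The tissues were engineered in molds with post anchors or in molds without them, and a post region and a middle region were taken. The labels do not say that same-numbered post and middle libraries came from one tissue. The 5 groups were thus anchored post, anchored middle, unanchored post, unanchored middle and, with no mold, cells in collagen that the submitters call blobs, with 3 libraries in each group. Cells of every group had 3 days of growth medium with 10% FBS, and then a chondrogenic medium for 25 days that held ascorbic acid at 50 µg/ml, dexamethasone and TGF-β3 at 10 ng/ml. The labels do not say whether the libraries of a group came from separate tissues or animals, so p-values here measure how far single libraries scatter, and that scatter may be technical.

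Type II collagen, 3 chains of the COL2A1 product wound together, is the main fibril of hyaline cartilage and marks the inner, more cartilage-like zone of the meniscus, whose bulk is type I collagen. Type XI collagen, built from COL11A1 and COL11A2 products with a COL2A1-derived chain, lies inside these thin fibrils and limits their width. Type IX collagen, built from COL9A1, COL9A2 and COL9A3 products, decorates the fibril surface and links it to other matrix proteins. COL11A1 is also made outside cartilage, where its chain can assemble with chains of type V collagen.

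Library totals ran from 2060781 to 7415701 counts, and 2 of the 3 shallowest libraries, at 2060781 and 2128257 counts, were of the no-mold group. Mitochondrial genes, taken as those with names that start with MT- and ND1, ND5, COX1 and COX3, may not be all of them. They took 1.52% to 2.36% of counts in molded libraries and 1.40% to 1.74% in no-mold libraries. Libraries of the same group correlated at r = 0.970 to 0.991 across genes, and libraries of different groups at 0.958 to 0.992. All 12 listed markers of meniscal fibrochondrocytes, among them COL1A1, COMP and SOX9, had counts in every group, with summed levels of 24030 to 43660 CPM (counts scaled to each library's total) in molded libraries and 28280 to 38700 CPM in no-mold libraries. The endothelial markers PECAM1, CDH5, VWF, KDR, TEK and CLDN5 summed to 0.809 to 1.90 CPM in molded libraries and 0.896 to 1.94 CPM in no-mold libraries. The 4 hypertrophic cartilage markers summed to 1.65 to 6.70 CPM in molded libraries and 3.29 to 5.82 CPM in no-mold libraries, and COL10A1 had 9 counts in all. In the molded mean against no mold, 1888 genes passed edgeR's quasi-likelihood test at a Benjamini-Hochberg adjusted p of 0.05, and 952 of them were higher. With library totals alone in place of TMM scaling, 1329 of 2006 were higher.

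Against no mold, transcripts of COL2A1, COL9A2 and COL11A2 were lower in the molded tissues, and COL11A1 did not differ beyond the test's threshold. In the mean of the 4 molded groups, COL2A1 fell by 3.24 on the log2 scale, and COL9A2 and COL11A2 fell by 2.38 and 2.36. COL11A1 differed by 0.19 and did not pass. COL9A1, with 57 counts in all, entered the test through the no-mold libraries, where it was high. In these Results it is left out of the counts of members called against no mold. The 3 called of the other 4 members stand beside 16% of all tested genes called in either direction and 7.91% called lower.

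COL2A1, the type II chain, had 66.4, 78.4 and 55.0 TMM-normalised CPM in anchored post libraries 1 to 3, and 104, 277 and 85.5 CPM in anchored middle libraries. It had 59.7, 65.9 and 19.5 CPM in unanchored post libraries, 77.2, 88.5 and 30.7 CPM in unanchored middle libraries, and 864, 750.1 and 510.1 CPM in no-mold libraries. Every molded library lay below every no-mold library, and anchored middle library 2 was the highest of the molded ones. The mean over 12 molded libraries was 84.0 CPM and the no-mold mean was 708 ± 181 CPM (SD, n = 3). The log2 fold change of the molded mean was -3.24 with a standard error of 0.248 (edgeR adjusted p = 1.59e-08). It stayed between -3.43 and -3.07 when each library was left out in turn. In bulk RNA, fewer cells that make a transcript and less of it per cell cannot be told apart.

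COL9A2, a chain of the fibril-surface collagen type IX, had 2.37, 2.19 and 1.44 CPM in anchored post libraries and 3.47, 6.47 and 5.11 CPM in anchored middle libraries. Its levels were 1.97, 3.32 and 0.346 CPM in unanchored post libraries, 3.12, 3.63 and 1.92 CPM in unanchored middle libraries, and 14.7, 17.4 and 6.95 CPM in no-mold libraries. The groups did not overlap, but no-mold library 3 was only a little above anchored middle library 2. The gene had 320 counts in all, and the fold change in the molded mean was -2.38 with a standard error of 0.285 (edgeR adjusted p = 5.97e-06).

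COL9A1, the other type IX chain among the members, is given as counts. It reached the filter's level of 1.77 CPM in 4 libraries, all 3 with no mold and anchored middle library 2, so that its passing of the filter depended on the group where it was high. It had 8 counts in 3 anchored post libraries, all of them in library 2, and 14 counts in anchored middle, as 4, 7 and 3 in libraries 1 to 3. There were 2 counts in unanchored post and 3 in unanchored middle. No mold had 30 counts, as 6, 19 and 5. Rates were taken per count of the library totals, without TMM scaling. In anchored post the rate over no mold was 0.128 (95% exact Poisson interval 0.0507 to 0.286, counting error only). In anchored middle the rate over no mold was 0.238 (0.117 to 0.463). In unanchored post the rate over no mold was 0.0343 (0.00397 to 0.135), and in unanchored middle 0.0463 (0.00904 to 0.149). All 4 intervals lay below 1, but they leave out the spread between libraries. The filter also favoured such a difference, so they describe the counts only. COL9A3, the remaining type IX chain and not a member, had 54 counts and was not tested, with 10, 9, 9 and 6 counts in anchored post, anchored middle, unanchored post and unanchored middle, and 20 counts in no mold.

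COL11A2, a type XI chain largely restricted to cartilage, had 1.97, 1.46 and 1.96 CPM in anchored post libraries and 1.33, 3.59 and 2.19 CPM in anchored middle libraries. Unanchored post libraries had 1.64, 1.56 and 1.73 CPM, unanchored middle libraries 1.13, 0.947 and 1.22 CPM, and no-mold libraries 8.61, 9.60 and 5.95 CPM. No molded library reached the lowest no-mold library. On 188 counts, with 7 libraries at the filter's level, the fold change in the molded mean was -2.36 with a standard error of 0.241 (edgeR adjusted p = 6.71e-07). In a RefSeq annotation of cattle, which need not be the one counted on, a long noncoding RNA overlaps COL11A2, and a pseudogene overlaps COL11A1. Reads of overlapping genes may not be told apart.

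COL11A1, the type XI chain that is also made in fibrous tissue, had 726, 703 and 715 CPM in anchored post libraries and 899, 1173 and 1076 CPM in anchored middle libraries. It had 829, 719.6 and 639 CPM in unanchored post libraries, 931, 1167 and 822 CPM in unanchored middle libraries, and 848, 772 and 630.2 CPM in no-mold libraries. The libraries overlapped: no-mold library 3 was the lowest of all 15, and the other no-mold libraries lay inside the range of the molded ones. The fold change in the molded mean was 0.19 with a standard error of 0.108, a 95% interval of -0.04 to 0.41 and an edgeR adjusted p of 0.255.

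COL2A1, COL9A2 and COL11A2 did not overlap between molded and no-mold libraries, where 4.29% of tested genes were lower in every molded library. The depth of the no-mold group and its lower mitochondrial share moved with these results, and their part in them was not tested. Without the 3 shallowest libraries, which leaves 1 no-mold library assumed to vary like the others, edgeR gave -3.49 for COL2A1 (adjusted p = 2.47e-08), -2.74 for COL9A2 (adjusted p = 4.42e-05) and -2.62 for COL11A2 (adjusted p = 2.47e-05).

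**Figure D1:**
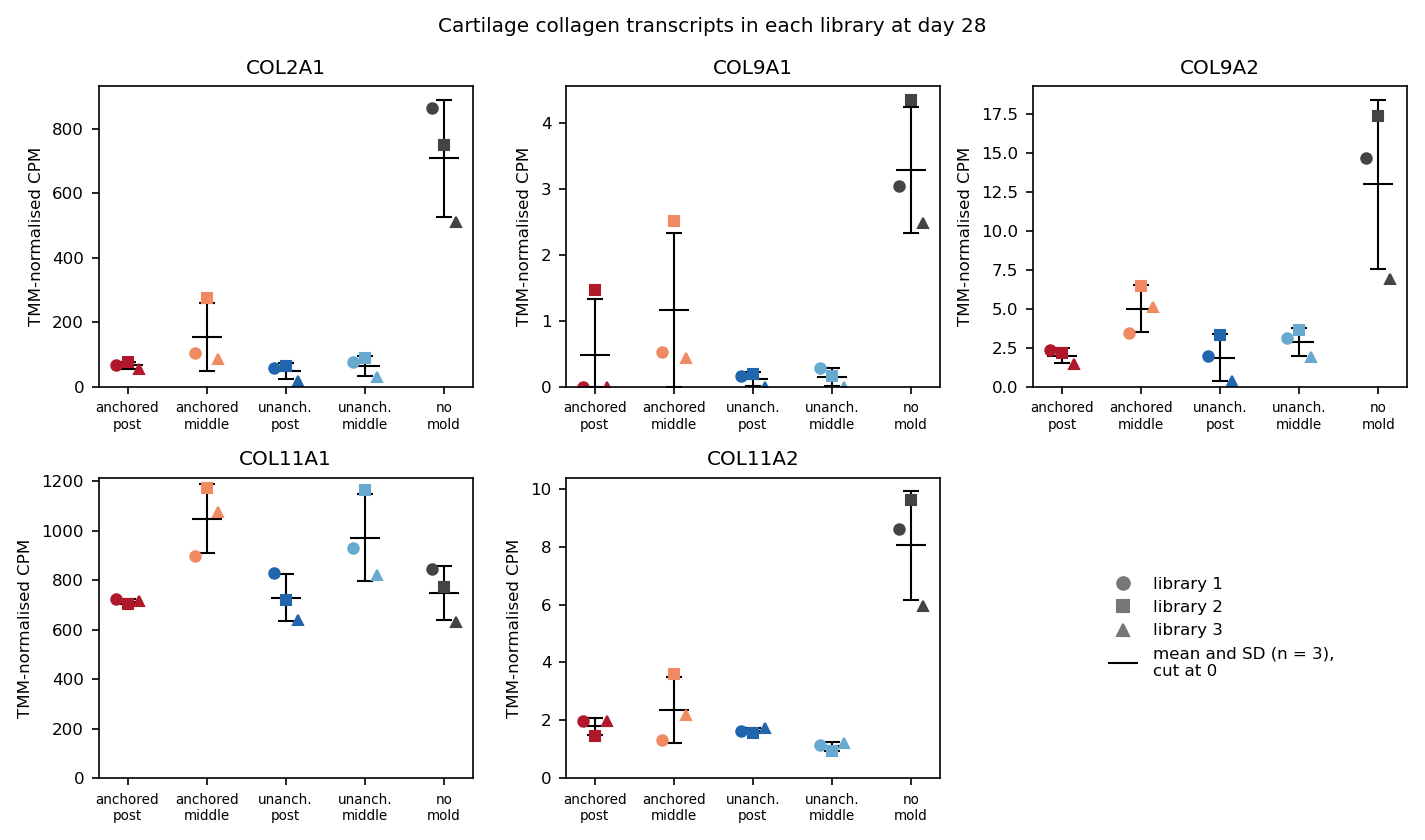
TMM-normalised CPM of each member (linear axis from 0) in the 15 libraries, by group; circle, square and triangle are libraries 1, 2 and 3, and the bar is the mean with its SD (n = 3). COL2A1, COL9A2 and COL11A2 are highest in all 3 no-mold libraries, while COL11A1 lies between 630.2 and 848 CPM there and between 639 and 1173 CPM in molded libraries.

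The 4 molded groups were then set one by one against the same 3 no-mold libraries, which they therefore share. COL2A1 had log2 fold changes of -3.42 in anchored post, -2.24 in anchored middle, -3.88 in unanchored post and -3.43 in unanchored middle, with standard errors of 0.370 to 0.401 (edgeR adjusted p at most 0.000312). COL9A2 had -2.82, -1.55, -2.90 and -2.23 in the same order of groups (edgeR adjusted p at most 0.00347). COL11A2 had -2.19, -2.00, -2.33 and -2.90 (edgeR adjusted p at most 9.74e-05). COL2A1 and COL9A2 had their smallest point estimates in anchored middle, and for COL2A1 that value rested on anchored middle library 2, a shallow library of 2986944 counts: without it the fold change was -2.90 (edgeR adjusted p = 1.92e-06). For COL9A2 in unanchored post, the fold change was -3.53 without unanchored post library 2. COL9A2 in anchored middle was no longer called without no-mold library 2 (-1.20, edgeR adjusted p = 0.0741).

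Of the 4 members other than COL9A1, 3 were called in anchored post, all lower, where 5.56% of tested genes were called and 2.64% were called lower. In anchored middle 3 were called lower and 1 higher, where 13.3% of tested genes were called, 6.2% lower and 7.11% higher. In unanchored post 3 were called lower, where 9.02% of tested genes were called and 4.09% lower. In unanchored middle 3 were called lower, where 14.8% were called and 7.2% lower. COL9A1 had an edgeR adjusted p under the threshold in each group. Passing the filter through its no-mold level favoured a difference from no mold, however, so these values describe it only. In anchored post its adjusted p was 0.0166, against 0.0607 and 0.0704 without anchored post libraries 1 and 3, 0.130 without no-mold library 2 and 0.0582 without the 3 shallowest libraries. In anchored middle it was 0.0364, and it lay between 0.0625 and 0.234 when any one of anchored middle libraries 1 and 3 and no-mold libraries 1, 2 and 3 was left out.

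COL11A1 was higher in anchored middle than in no mold, the only rise among the members that passed edgeR's test. All 3 anchored middle libraries, at 899 CPM or more, lay above all 3 no-mold libraries, at 848 CPM or less, and 15.4% of tested genes were higher without overlap in this comparison. The fold change was 0.48 with a standard error of 0.135 (edgeR adjusted p = 0.0189). The adjusted p was 0.0575 without anchored middle library 3, 0.126 without no-mold library 3 and 0.3025 without the 3 shallowest libraries. In unanchored middle the difference from no mold was 0.38 and did not pass (edgeR adjusted p = 0.0615). With library totals alone in place of TMM it was 0.46 and passed (adjusted p = 0.0165). It passed as well with no filter on low counts (adjusted p = 0.00372) and with only these 2 groups in the fit (0.0324), and with any one of anchored middle libraries 1 and 2, unanchored middle library 3 or no-mold library 1 left out (adjusted p 0.0264 to 0.0484). In anchored post it was -0.07, with a 95% interval of -0.35 to 0.21. In unanchored post it was -0.04, with an interval of -0.32 to 0.24, and its sign turned with library totals alone (0.03).

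**Figure D2:**
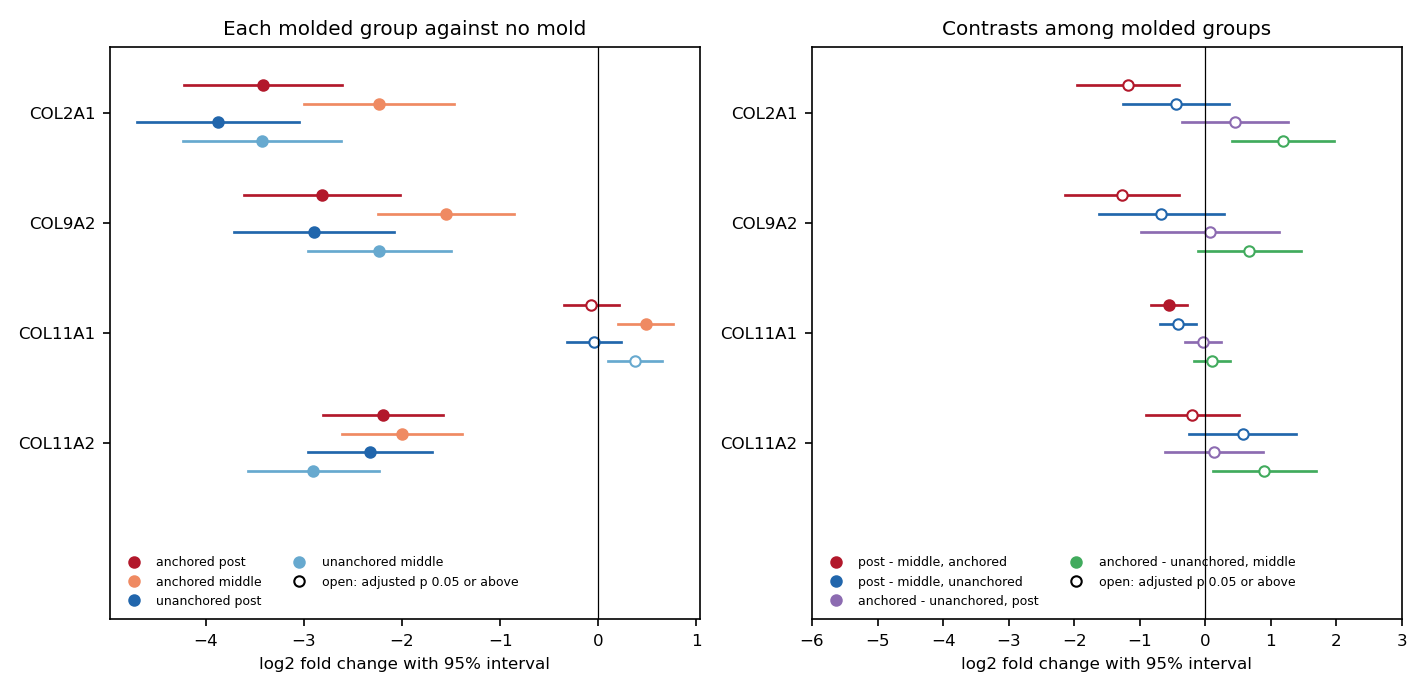
Log2 fold changes of COL2A1, COL9A2, COL11A1 and COL11A2 with 95% intervals from edgeR, each molded group against no mold (left) and the contrasts among molded groups (right); filled points have an adjusted p under 0.05. COL2A1, COL9A2 and COL11A2 lie between -3.88 and -1.55 in all 4 groups on the left, and among molded groups COL11A1 alone has a filled point, for post against middle in anchored tissue (-0.55).

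The balance between chains was also described as ratios of counts within a library. These do not depend on the scaling of libraries, but reads of 3′ tags are not molecules of chain. COL2A1 had 9.33 ± 1.74 counts per 100 COL11A1 counts in anchored post, 14.4 ± 8.18 in anchored middle, 6.48 ± 3.12 in unanchored post, 6.54 ± 2.45 in unanchored middle and 93.4 ± 11.0 in no mold (SD, n = 3 each). In no-mold tissue the COL2A1 count was thus near that of COL11A1 in each library, from 80.9 to 102 per 100. In molded tissue it was 3.06 to 23.6 per 100. COL11A2 had 0.251 ± 0.0377 counts per 100 COL11A1 counts in anchored post, 0.219 ± 0.0801 in anchored middle, 0.228 ± 0.0377 in unanchored post, 0.117 ± 0.0339 in unanchored middle and 1.07 ± 0.156 in no mold. The pair of type XI chains thus changed in ratio too, with every no-mold library above every molded library. Per 100 COL2A1 counts, COL9A2 had 1.77 to 6.25 counts in molded libraries and 1.36 to 2.32 counts in no-mold libraries, and these ranges overlapped.

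Type II against type I collagen is the usual index of cartilage-like against fibrous matrix in the meniscus, and COL1A1 encodes the main type I chain. COL2A1 had 0.673, 1.06 and 0.501 counts per 100 COL1A1 counts in anchored post libraries and 0.824, 2.04 and 0.557 in anchored middle libraries. The ratio was 0.649, 0.719 and 0.323 in unanchored post libraries, 0.554, 0.574 and 0.359 in unanchored middle libraries, and 6.20, 7.18 and 5.81 in no-mold libraries. All 12 molded libraries lay below all no-mold ones. On the log2 scale, with 0.5 added to each count, the ratio was lower by 3.29 in molded tissue than in no mold (difference -3.29, exact permutation test over libraries, two-sided p = 0.0022, the smallest that 455 splits allow, 0.00659 adjusted over 3 such tests). Anchored libraries had a ratio higher by 0.71 than unanchored ones (exact permutation p = 0.0671, adjusted 0.101, n = 6 each), and post libraries differed by -0.16 from middle ones (exact permutation p = 0.729, n = 6 each). The anchored difference was 0.45 without anchored middle library 2 (exact permutation p = 0.136), and its p was 0.0368 without anchored post library 3 and 0.0476 without anchored middle library 3. Without anchored middle library 2 the difference of post from middle was 0.15. Reads shared among places in the genome can make a library's count not whole, but their share was not measured. Of the COL1A1 counts, 61.4% stand in values that are not whole numbers, the full counts of 9 libraries. None of the COL2A1 counts do. COL1A2, of which 34.1% do, gave 0.939 ± 0.230, 1.65 ± 1.18, 0.654 ± 0.283 and 0.682 ± 0.241 COL2A1 counts per 100 in anchored post, anchored middle, unanchored post and unanchored middle, and 10.4 ± 1.23 in no mold.

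**Figure D3:**
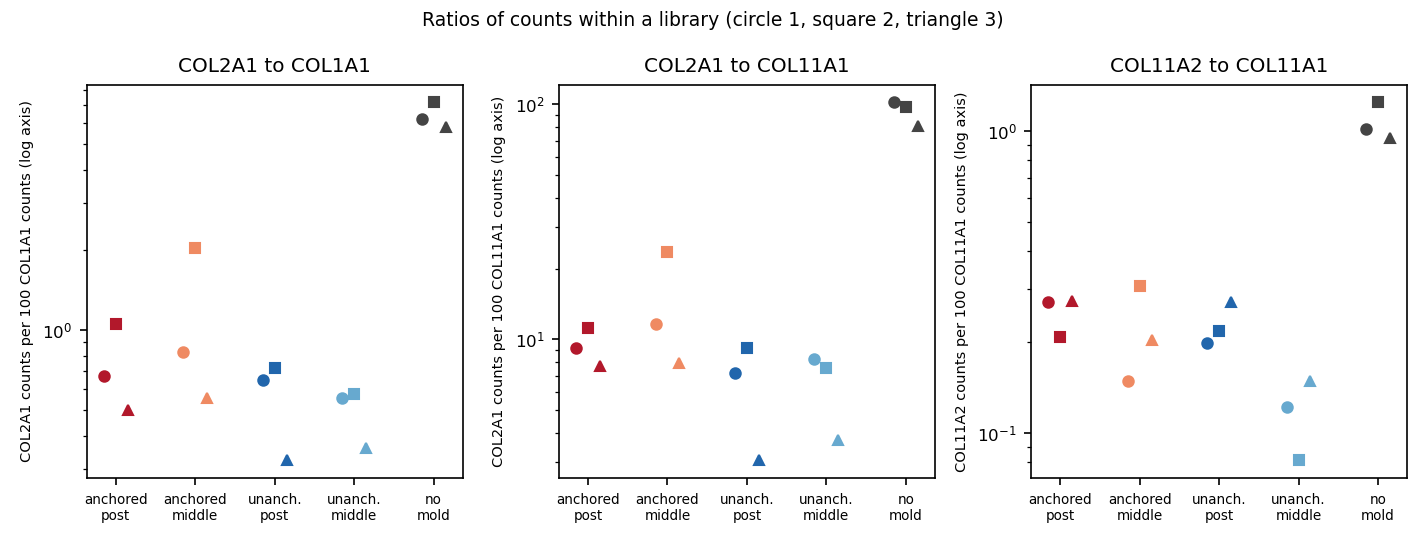
Counts of one chain per 100 counts of another in each library (log axis; circle, square and triangle are libraries 1, 2 and 3): COL2A1 to COL1A1, COL2A1 to COL11A1 and COL11A2 to COL11A1. In all 3 panels the no-mold libraries stand above the 12 molded libraries, for COL2A1 to COL11A1 at 80.9 to 102 against at most 23.6.

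Post and middle regions differed in COL11A1. Averaged over both mold types, COL11A1 was lower in the post region, at a mean of 722 CPM in 6 post libraries and 1012 CPM in 6 middle libraries. The fold change was -0.48 with a standard error of 0.0946 (edgeR adjusted p = 0.00237). The libraries overlapped only through unanchored post library 1, at 829 CPM, and unanchored middle library 3, at 822 CPM, and the adjusted p was between 0.000861 and 0.0138 when each library was left out. It was the 1 of 5 members called, COL9A1 included, where 8.51% of tested genes were called and 5.19% were called lower.

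COL9A2 averaged 1.94 CPM in post libraries and 3.95 CPM in middle libraries, a fold change of -0.97 that did not pass (edgeR adjusted p = 0.0561). DESeq2 gave -0.97 with an adjusted p of 0.0456, and limma voom -1.13 with 0.0474. COL2A1 averaged 57.5 CPM in post libraries and 110.5 CPM in middle libraries, a fold change of -0.81 with an edgeR adjusted p of 0.0630 that was -0.49 without anchored middle library 2 (adjusted p = 0.164). With the replicate number as a block both genes passed (edgeR adjusted p = 0.00497 for COL2A1 and 0.0190 for COL9A2). The labels do not tie same-numbered libraries to one tissue, and numbers were not taken as pairs. Either gene passed in some fits with a library left out. COL2A1 had edgeR adjusted p-values of 0.0331 and 0.0327 without anchored middle libraries 1 and 3, 0.0489 without unanchored post library 2 and 0.0163 without unanchored middle library 3. COL9A2 had 0.0333 without anchored middle library 1, 0.0228 without unanchored post library 2, 0.0369 without unanchored middle library 3 and 0.0430 without no-mold library 3. COL11A2 had 1.72 CPM in post libraries and 1.74 CPM in middle libraries, with a 95% interval of the fold change from -0.35 to 0.73. COL9A1 had 10 counts in post and 17 counts in middle libraries.

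Within anchored tissue, COL11A1 was again lower in post than in middle libraries, by -0.55 with a standard error of 0.134 (edgeR adjusted p = 0.0300). It was the 1 member called, where 1.92% of tested genes were called and 1.66% were called lower. All 3 anchored post libraries, at 703 to 726 CPM, lay below all 3 anchored middle libraries, and COL2A1 and COL9A2 did not overlap in this direction either. Of tested genes, 9.73% did not. The adjusted p exceeded the threshold without anchored post library 1 (0.0910), 2 (0.0701) or 3 (0.113) and without anchored middle library 2 (0.0769) or 3 (0.103), and with only these 2 groups in the fit (0.0707). COL2A1 and COL9A2 had fold changes of -1.18 and -1.27 there that did not pass (edgeR adjusted p = 0.117 and 0.138). Without anchored middle library 2, that of COL2A1 was -0.52. Both genes passed with the replicate number as a block (edgeR adjusted p = 0.0105 for COL2A1 and 0.0440 for COL9A2). Within unanchored tissue 0 of 5 members passed edgeR's test, where 0.448% of tested genes did. COL11A1 had -0.42 (unadjusted p = 0.00474, edgeR adjusted p = 0.160), and DESeq2 also called 0 members, with 2 of them given an adjusted p. COL11A2 there had 1.64 CPM in post and 1.10 CPM in middle libraries without overlap (0.57, edgeR adjusted p = 0.544), as had 10.1% of tested genes in this direction. Over all genes in unanchored tissue, edgeR called 53, and 1648 had an unadjusted p under 0.05. A difference of the post effect between mold types was tested as an interaction: for COL11A1 it was -0.14 with a 95% interval of -0.53 to 0.25, and 0 of 11834 genes passed edgeR's test (0%), with 223 at an unadjusted p under 0.05.

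Anchored against unanchored tissue gave no called member. In the middle region COL2A1 averaged 155.5 ± 105 CPM in anchored and 65.5 ± 30.6 CPM in unanchored libraries (SD, n = 3 each), and the libraries overlapped. The fold change was 1.19 with a 95% interval of 0.41 to 1.97, and edgeR's adjusted p was 1. It was 0.53 without anchored middle library 2. COL11A2 had a fold change of 0.90 in the middle region, also with an adjusted p of 1 by edgeR, and COL9A1 had 14 counts in anchored and 3 counts in unanchored libraries. Libraries did not overlap for COL11A2, nor for 3.76% of tested genes in this direction. Those of COL9A1 did not overlap either, but the nearest 2 held 3 counts in anchored and 2 counts in unanchored middle. COL11A1 differed little by point estimate, with 0.11 in the middle region (95% interval -0.17 to 0.38) and -0.03 in the post region (-0.31 to 0.25). In the post region COL2A1 had 0.46, with an interval of -0.35 to 1.27. By edgeR, 0 of 11834 genes (0%) passed in the post region, the middle region or their average, with 454, 366 and 648 genes at an unadjusted p under 0.05. DESeq2 and limma voom also called 0 genes in all 3.

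The genes around these chains were read from lists of partners, regulators, fibrous chains, processing enzymes and receptors. Of the partners of the cartilage fibril, 20 genes with 11 tested, 6 were lower in the molded mean against no mold and 0 higher, with a median log2 fold change of -0.42 beside 0.00027 over all genes tested, of which 16% were called and 7.91% lower. The groups differed: 6 partners were lower in anchored post (median -0.72) and 6 in unanchored post (-0.72). Against that, 2 were lower and 1 higher in anchored middle (median 0.10), and 3 lower and 1 higher in unanchored middle (-0.30). CHAD, a leucine-rich matrix protein that binds collagen and cells, had 51.2 CPM in molded and 135 CPM in no-mold libraries (-1.53, edgeR adjusted p = 4.12e-06). PRELP, another small leucine-rich protein, had 1.51 CPM in molded and 3.85 CPM in no-mold libraries (-1.43, adjusted p = 0.00241, but 0.120 without no-mold library 2). SCRG1, a small protein of cartilage cells, had -1.17 (adjusted p = 0.00121). ACAN, the large proteoglycan of cartilage, had 127 CPM in molded and 213 CPM in no-mold libraries (-0.84, adjusted p = 0.00601), and its adjusted p was 0.0890 without no-mold library 1. COMP and HAPLN1 made up the 6, but COMP had 2189 CPM in anchored middle, against 1795 CPM in no mold, and did not pass there (edgeR adjusted p = 0.568).

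Of 11 tested regulators of cartilage collagen transcription, on a list of 14, 2 were lower and 0 higher in the molded mean, with a median of -0.34, beside the same 7.91% of all genes lower. In anchored middle 2 were lower, SOX9 and BARX1, and 2 higher, TRPS1 (0.47, edgeR adjusted p = 0.0348) and WWP2 (0.49, adjusted p = 0.0230), with a median of -0.09. There 6.2% of all tested genes were called lower and 7.11% higher. SOX9, the transcription factor that drives COL2A1, COL9A1 and COL11A2 in chondrocytes, had 124 ± 9.96 CPM in anchored post, 139.7 ± 5.15 CPM in anchored middle, 129 ± 9.16 CPM in unanchored post and 124 ± 12.6 CPM in unanchored middle, and 224 ± 18.8 CPM in no mold (SD, n = 3 each). Its fold change was -0.79 with a standard error of 0.0778 (edgeR adjusted p = 5.86e-07), and no molded library reached a no-mold one. BARX1, a homeobox factor of joint and cartilage, had -0.62 (adjusted p = 0.00129). The SOX9 partners SOX5 and SOX6 were tested and did not pass.

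Of 6 fibrous fibrillar chains, all tested, 0 passed edgeR's test in the molded mean, with a median of -0.03, but the regions went opposite ways. The median was -0.26 in anchored post and -0.19 in unanchored post, with 0 called, and 0.36 in anchored middle and 0.20 in unanchored middle, with 2 called higher in each. These were COL5A2, a type V chain (0.61 in anchored and 0.55 in unanchored middle, edgeR adjusted p = 0.00420 and 0.00825), and COL1A2, the other type I chain (0.50 and 0.45, adjusted p = 0.0237 and 0.0371). Of all tested genes, 7.11% were called higher in anchored middle and 895 of 11834 in unanchored middle. COL1A1 had 11014 CPM in molded and 11049 CPM in no-mold libraries, a fold change of -0.04 with an adjusted p of 0.916. Among 27 tested genes of procollagen folding, processing and crosslinking, on a list of 30, 3 were higher and 5 lower, beside 16% of all genes called. By group, 1 was higher and 4 lower in anchored post, 5 higher and 0 lower in anchored middle, 0 higher and 5 lower in unanchored post, and 4 higher and 2 lower in unanchored middle. In the same order, 346, 841, 584 and 895 of 11834 tested genes were called higher, and 2.64%, 6.2%, 4.09% and 7.2% lower. The lysyl hydroxylase PLOD1 had -0.74 (edgeR adjusted p = 0.000849) and the prolyl 4-hydroxylase subunit P4HA3 had 0.61 (adjusted p = 0.000542). P3H3 (-0.49) and P4HA1 (0.34), other hydroxylase genes, were called as well. P3H3 was not called without no-mold library 1 (adjusted p = 0.0797) or 3 (0.0596), nor P4HA1 without no-mold library 3 (0.171). Of 10 tested receptors and collagenases, on a list of 13, 2 were higher, CTSK at 0.45 (edgeR adjusted p = 0.00930) and MMP2 at 0.29 (0.0348). This count stands beside 16% of all tested genes called, with 952 of 11834 called higher. The call for the protease gene CTSK ended without no-mold library 3 (0.0519). The call for MMP2, which encodes a gelatinase, ended without any of the 3 no-mold libraries, anchored post library 1 or unanchored post library 2 (adjusted p 0.0509 to 0.170). Of the 5 other cartilage-type collagen chains, 2 were tested and 0 passed. Without the 3 shallowest libraries, ACAN, P3H3, P4HA1, P4HA3, CTSK and MMP2 were not called (adjusted p 0.0846 to 0.432), while CHAD, PRELP, SCRG1, SOX9, BARX1 and PLOD1 were.

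Averaged over mold types, post was also set against middle for these lists, where 8.51% of all tested genes were called and 5.19% lower. Of the 6 fibrous chains, 4 were lower in the post region and 0 higher, with a median of -0.47 beside -0.01 over all genes. COL3A1 had -0.66 (edgeR adjusted p = 0.000981), COL1A1 -0.60 (0.0121), COL5A2 -0.55 (0.000935) and COL1A2 -0.40 (0.0180). COL1A1 was not called without unanchored middle library 2 (0.0538), nor COL1A2 without that library (0.0749) or unanchored post library 3 (0.0646). Of the 11 tested fibril partners, 7 were lower, among them COMP (-1.43, adjusted p = 0.000121), CHAD (-1.14, 0.000218), ACAN (-1.01, 0.00164) and CILP (-0.74, 0.000253). Of the tested regulators 2 were lower, TRPS1 (-0.75, adjusted p = 5.61e-05) and WWP2 (-0.74, adjusted p = 3.74e-05), while SOX9 had 127 CPM in post and 132 CPM in middle libraries (-0.05, adjusted p = 0.697).

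Of 27 tested processing genes, 10 were lower in the post region and 0 higher (5.19% of all genes were lower), among them the crosslinking enzymes LOX (-0.61, edgeR adjusted p = 0.000935), LOXL4 (-0.48, 0.00318) and LOXL2 (-0.46, 0.00610) and the procollagen N-proteinase ADAMTS2 (-0.45, 0.00102). Of 10 tested receptors and collagenases, 3 were lower and 1 higher. The collagen receptor genes ITGA10 (-0.48, edgeR adjusted p = 0.00171), ITGA11 (-0.61, 0.0302) and DDR2 (-0.25, 0.0153) were lower, and CTSK was higher (0.38, 0.0200). ITGA11 was not called by limma voom (0.0675), nor without anchored post library 2 (0.0595) or 3 (0.0640), anchored middle library 3 (0.119), unanchored post library 3 (0.0754), or unanchored middle library 1 (0.112) or 2 (0.102). CTSK was not called without unanchored post library 3 (0.0646) or unanchored middle library 2 (0.0761). Of the 2 tested other cartilage-type chains 0 passed. Averaged over regions, 0 genes of these lists passed for anchored against unanchored tissue.

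**Figure D4:**
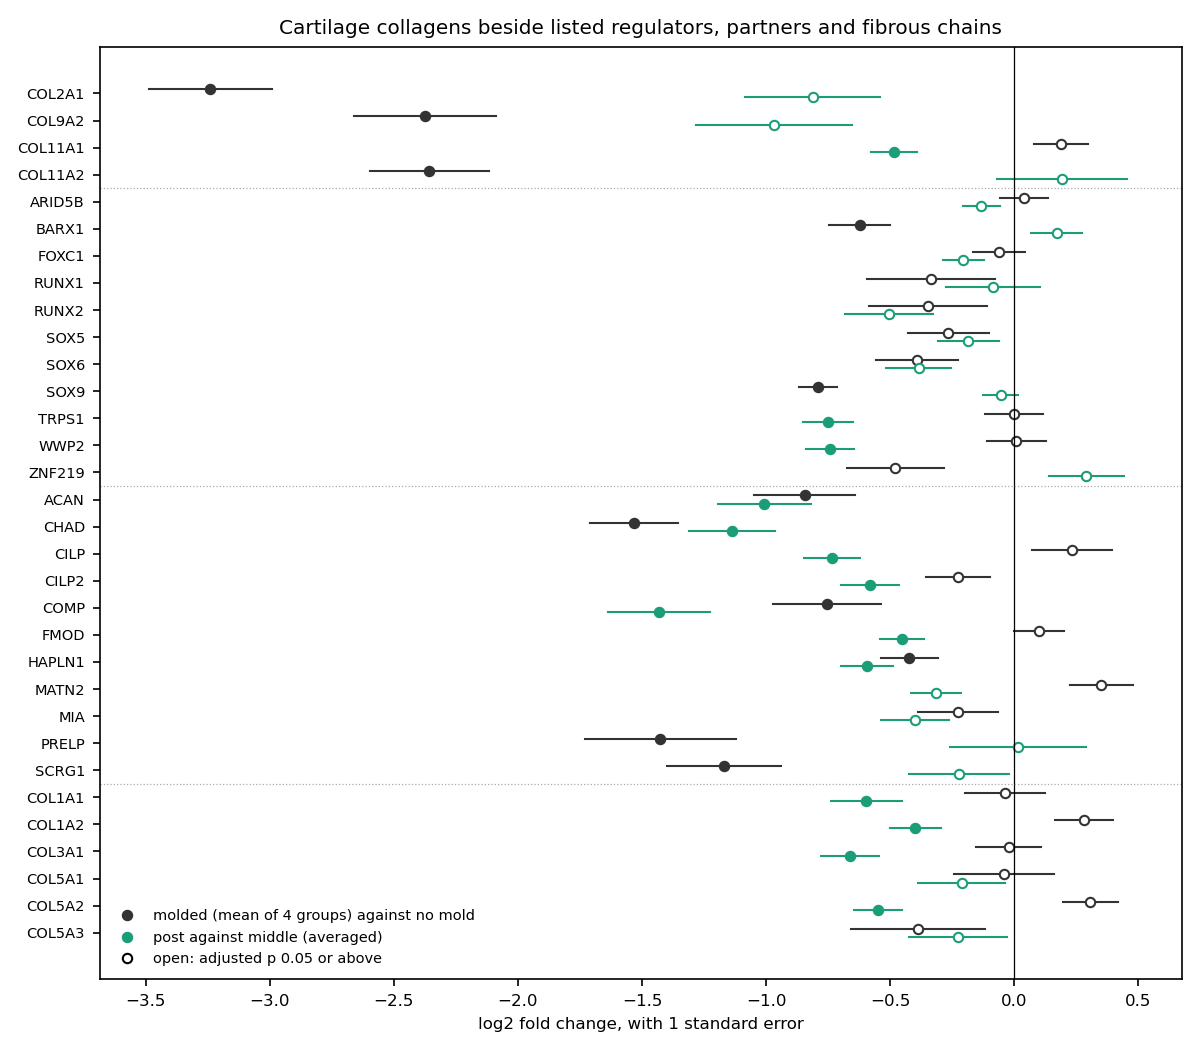
Log2 fold changes (points) with 1 standard error (lines) for COL2A1, COL9A2, COL11A1 and COL11A2 and all tested genes of 3 lists, set apart by dotted lines: regulators, fibril partners and fibrous chains; black is molded against no mold, green post against middle, and filled points have an edgeR adjusted p under 0.05. COL2A1 and SOX9 have filled black points only, at -3.24 and -0.79, while COL11A1, COL1A1 and COL5A2 have filled green points only, at -0.48, -0.60 and -0.55.

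The libraries share their groups and depth, so the correlations of log2 CPM across the 15 libraries are descriptions. COL2A1 correlated with COL9A2 at r = 0.94, with COL9A1 at 0.91 and with COL11A2 at 0.87, and with COL11A1 at 0.12. The order was another within the 12 molded libraries, where COL2A1 correlated with COL9A2 at 0.88, with COL11A1 at 0.70 and with COL11A2 at 0.43. With group means removed, COL2A1 correlated with COL9A2 at 0.82, with COL11A1 at 0.73 and with COL11A2 at 0.30. COL11A1 correlated with COL1A1 at 0.83 over all libraries and COL2A1 with COL1A1 at 0.40.

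Among 7209 genes with a mean of at least 10 CPM, the 5 most like COL2A1 were S100A1 (r = 0.95), APOA1 (0.93), ADM (0.92), SOX9 (0.91) and SH3BGRL3 (0.91). S100A1, which encodes a calcium-binding protein, was also the first for COL11A2 (0.93), followed by NFIX, APOA1, NCALD and LHPP, and the second for COL9A1 (0.90) after ERO1A (0.92), followed by MRPL45, CLDN15 and SSR4. For COL9A2 they were CHAD (0.94), EFHD1, SHISA5, MFGE8 and ELN. Genes most like COL11A1 included TENT5A (0.94), COL5A2 (0.94), NFIB (0.93) and PLAC9 (0.93), none of which was among those named for the other members. With group means removed, COL2A1 correlated at 0.93 with S100A1, 0.86 with APOA1, 0.95 with ADM, 0.53 with SOX9 and 0.49 with SH3BGRL3, and COL11A1 at 0.83 with COL5A2.

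**Figure D5:**
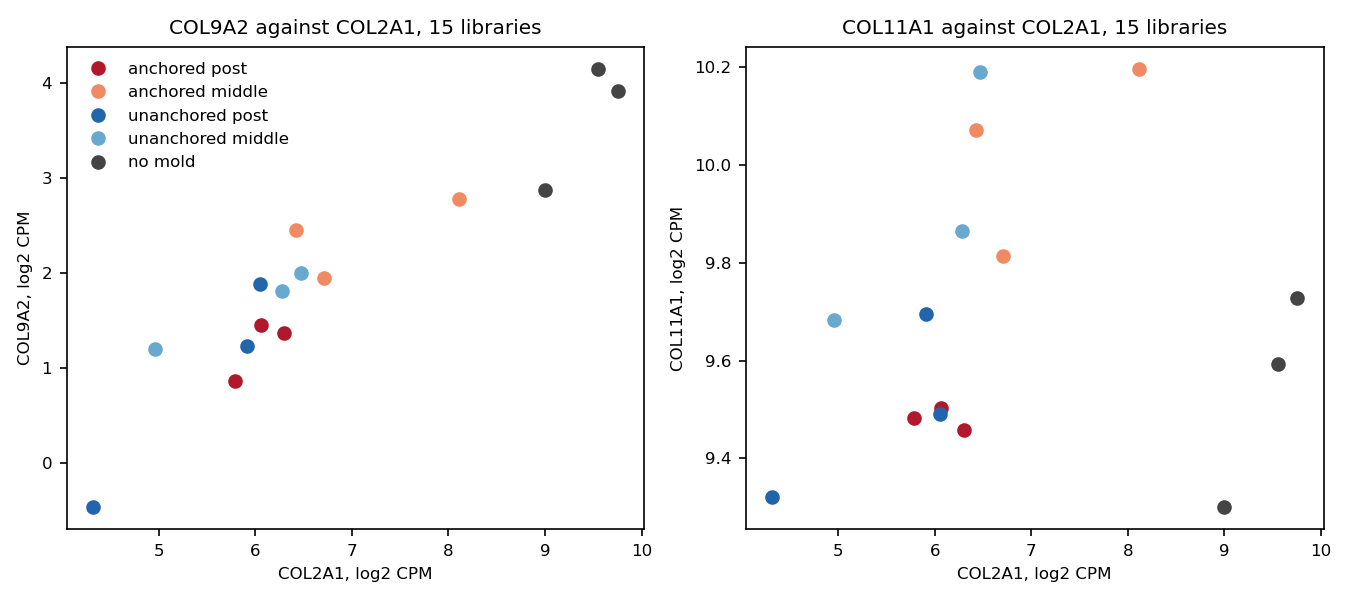
Log2 CPM of COL9A2 (left) and COL11A1 (right) against that of COL2A1, 1 point a library, coloured by group. COL9A2 follows COL2A1 over all 15 libraries (r = 0.94), whereas the no-mold libraries hold the highest COL2A1 values at middling COL11A1 values (r = 0.12).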

How the data were processed

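RNA was measured in 15 libraries, 3 in each of 5 groups taken from the labels. Libraries were primed with oligo-dT and tagmented, per the labels' protocols, so reads lie mainly at 3′ ends and levels are not per gene length. Per the submitters' processing notes, the tools included Subread 2.1.1 with featureCounts and the aligner STAR 2.7. Which build, annotation and strand setting were used, and whether molecular identifiers were collapsed, is not given in the sources used here. The authors deposited 1 table with expected counts per gene and CPM, the count scaled to the library's total. Values that are not whole can arise from shared reads. They make up 8.06% of COL11A1 counts, the full count of 1 library, and 0% of those of the other members. The share of reads that were shared was not measured.

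Expected counts were rounded, the 92 spike-in rows (18 to 70 counts per library) were left out, and genes were kept by filterByExpr (minimum count 10, total 15). One edgeR 4.0.16 quasi-likelihood model in R 4.3.3 with a mean per group and TMM scaling (factors 0.934 to 1.05) gave 12 two-sided contrasts, adjusted over 11834 genes by Benjamini and Hochberg with a threshold of 0.05. Levels are TMM-normalised CPM computed from the deposited counts. Correlations used log2 CPM with a prior count of 2. Alternatives were DESeq2 1.42.0, limma 3.58.1 voom, other scalings and filters, a replicate block and leaving out libraries. Same-numbered libraries deviated together at r = -0.17 to 0.26. In 0 of 10 pairs of groups did every number exceed 0.1, so numbers were not taken as pairs. Deviations from means of 3 libraries cannot exclude pairing, however. For numbers 1 to 3, r was 0.0916, 0.107 and 0.264 between unanchored post and unanchored middle. Between anchored post and anchored middle it was -0.0288, 0.0791 and 0.138. Members and lists were chosen with earlier results of these data known. Named genes are the members, SOX9, COL1A1, up to 4 of the largest called changes per list, and the 5 genes most correlated with each member; HAPLN1, SOX5 and SOX6, and COMP in the molded comparison, were named after their values were seen. One gene that the rule names is not reported here. No sequence was used here.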

Additional observations from a re-analysis of the deposited data

How the results depend on the processing

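Counts of members here include COL9A1. Its passing of the filter favoured a difference from no mold, so the counts against no mold are descriptions only. No call of a member changed sign under any setting run. In leave-one-out fits 872 of the members' results kept their side of the threshold, 16 lost it and 12 gained it, and under the other settings 513 kept it, 5 lost it and 18 gained it. Among the 16, COL9A1 against no mold made up 5 in anchored middle and 3 in anchored post. Members called ranged, with each library left out, from 3 to 5 in anchored middle against no mold, from 0 to 1 for post against middle in anchored tissue and from 1 to 3 averaged. With no filter on low counts they were 3 for post against middle in anchored tissue, 2 in unanchored tissue and 3 averaged, and 1 for anchored against unanchored in the middle region and 1 averaged. That fit also called 21 of 21304 tested genes for anchored against unanchored in the post region, 28 in the middle region and 66 averaged. For the interaction it called 3, and for post against middle 479 in anchored tissue, 272 in unanchored tissue and 1195 averaged. The cause was not tested. At least 10 CPM in 3 libraries left only COL2A1 and COL11A1 to test: against no mold, 1 was called in the molded mean, 1 in anchored post, 2 in anchored middle, 1 in unanchored post and 1 in unanchored middle. Of the 8191 genes that this filter kept, 1847, 717, 1540, 1107 and 1683 were called in the same order of comparisons. DESeq2 gave 3 of the 5 members no adjusted p in either post group and so called 1 in anchored post and 1 in unanchored post. It called 675 and 1036 of 21304 genes with any count there. DESeq2 and limma voom each called 2 for post against middle averaged, where they called 876 of 21304 and 1031 of 11834 genes. For post against middle in unanchored tissue DESeq2 called 125 genes. With only the groups compared, 0 members were called for post against middle in anchored tissue, and 105 and 192 genes in anchored and unanchored tissue.

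Without the 3 shallowest libraries 0 members were called for post against middle in anchored tissue. Genes called against no mold were then 335 in the molded mean, 82 in anchored post, 411 in anchored middle, 170 in unanchored post and 421 in unanchored middle, with 1 no-mold library left, and 148 for post against middle in unanchored tissue. With each library left out, genes called were 856 to 2297, 251 to 951, 768 to 1861, 496 to 1403 and 790 to 2061 in the same comparisons with no mold. For post against middle they were 62 to 283 in anchored tissue, 3 to 159 in unanchored tissue and 465 to 1150 averaged. The log2 ratio of COL2A1 to COL1A1 in molded against no-mold tissue was -3.61 without the 3 shallowest libraries (exact permutation p = 0.0833, the smallest that 1 no-mold library allows). For anchored against unanchored it was 0.86 with COL1A2 as denominator (exact permutation p = 0.0346) and 0.45 to 0.86 with each library left out. With the replicate number as a block, 3 members were called for post against middle in anchored tissue and 3 averaged, among them COL2A1 (edgeR adjusted p = 0.0105 and 0.00497) and COL9A2 (0.0440 and 0.0190). The block fit called 273 of 11834 genes for post against middle in anchored tissue and 1022 averaged. COL11A1 passed in it in unanchored middle against no mold (0.0452), where 1759 genes did, and 1 gene passed for anchored against unanchored averaged. COL9A1 missed the threshold in anchored middle (edgeR adjusted p = 0.0818). The anchored ratio of 0.71 had a permutation p of 0.00926. Libraries correlated best with their own number in 25 of 60 cases, each a choice of 1 among 3 libraries. COL9A1, COL9A3 and COL10A1 are limited by depth, with 57, 54 and 9 counts in all.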
